A study of Mus musculus with 8 samples.

Results

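A set of 57 of the 21240 genes in the count table had at most 25.0% of their DMSO level left in NMuMG cells treated with BRM014, both after 30 h and after 6 h. NMuMG is an established line of normal mouse mammary gland epithelial cells, wild type per the labels and grown in medium with serum and insulin. BRM014 is an inhibitor of the SWI/SNF ATPases SMARCA4 (BRG1) and SMARCA2 (BRM), and the sources used here give no dose. The groups were BRM014 for 30 h, BRM014 for 6 h, the vehicle DMSO for 30 h and DMSO for 6 h, with 2 libraries of total RNA each and 8 libraries in all. The labels call the libraries biological replicates and do not say whether they came from separate cultures, so the p-values below measure the spread between these libraries, which may be technical.

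The genes were chosen by their measured levels. Each had a mean of at least 4 CPM (the count divided by the library total and multiplied by 1000000) with DMSO at both times, and a BRM014 mean of at most 25.0% of the DMSO mean at both times. These thresholds were met by 67 genes. The 10 of them whose symbols start with the prefixes of claudins, keratins, integrins, laminins, matrix metalloproteases, chemokines, the interleukin-1 group, solute carriers and S100A proteins were left out (Il18rap, Il1rn, Slco4a1, Mmp13, Cldn2, Ccl7, Ccl9, Krt14, Krt6a and Itgb7). Because the comparisons of BRM014 with DMSO chose the genes, their values in those comparisons are given as a description, with no test. Changes between 30 h and 6 h within each treatment are other contrasts of the same libraries and were tested gene by gene. The levels behind them entered the choice at both times, so their counts over the set are a description too.

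SWI/SNF complexes use ATP to slide or evict nucleosomes, which keeps enhancers and promoters open to transcription factors. In epithelia they are known to act largely at distal enhancers, where factors such as AP-1 bind, and many genes of differentiated epithelium depend on such enhancers. The 57 genes do not form 1 known pathway. They are described below under loose headings. These are receptors and immune proteins, proteins of stratified epithelium, secreted and matrix proteins, enzymes, gene regulators, cytoskeletal proteins, and proteins of membrane transport. Some genes fit loosely: Zan, a sperm surface protein, under membrane transport, and Serpinb9b, an intracellular serpin, under stratified epithelium.

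The libraries held 17859693 to 29955366 counts, 13286 to 13922 genes had a count in each, and replicates correlated with r = 0.990 to 0.994 across genes on the log2 CPM scale. Of the 11 epithelial markers, Epcam and Cldn7 were listed at 0 in all 8 libraries. Esrp1 and Grhl2 reached at most 0.0334 and 0.554 CPM in any library. The other 7 passed the filter on low counts. The 11 markers summed to 8231 to 9334 CPM with BRM014 at 30 h, against 5992 to 6139.9 CPM with DMSO, and 5999.7 to 6570.0 CPM with BRM014 at 6 h, against 6292 to 6396 CPM with DMSO. Krt8 (0.67 ± 0.10, adjusted p = 0.000179) and Krt18 (0.79 ± 0.11, adjusted p = 7.16e-05), which made up most of that sum, were higher with BRM014 at 30 h on the log2 scale, by edgeR's quasi-likelihood test with Benjamini-Hochberg adjustment. Krt19 was called lower at both times, with log2 fold changes of -0.87 ± 0.14 (30 h, adjusted p = 0.000304) and -1.08 ± 0.14 (6 h, adjusted p = 8.78e-05). Of the 7 tested markers, 3 were higher and 1 lower at 30 h, and none higher and 2 lower at 6 h. Summed markers of leukocytes (15 genes) reached at most 1.05 CPM in any library, those of fibroblasts (8 genes) 2.82 CPM, of endothelium (7 genes) 0.258 CPM and of adipocytes (5 genes) 0.150 CPM. The fibroblast marker Col1a1, a collagen chain, had 0.448 and 0.401 CPM with BRM014 at 30 h, against 1.99 and 1.49 CPM with DMSO, and 0.103 and 0.214 CPM with BRM014 at 6 h, against 0.380 and 1.00 CPM with DMSO. It was called lower at both times by the same test (-2.06 ± 0.49, adjusted p = 0.00527 at 30 h, and -2.11 ± 0.67, adjusted p = 0.0362 at 6 h); the 30 h call ended without BRM014 30 h replicate 2 and the 6 h call under 5 alternatives. The part of these marker differences in the results was not tested.

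Every gene of the set was lower in both BRM014 libraries than in both DMSO libraries at each time. That holds for 57 of 57 genes at 30 h, where 30.4% of the 11835 tested genes showed it, and for 57 of 57 at 6 h, where 26.5% did; the choice of the genes fixes these counts. The median level left with BRM014 was 8.87% of DMSO at 30 h (range 0% to 23.3%) and 15.5% at 6 h (0.532% to 25.0%). Fewer than 10% were left for 32 genes at 30 h and for 13 at 6 h, and for 10 genes at both times. The share left was lower at 30 h than at 6 h in 44 genes and higher in 13. In bulk RNA, fewer cells that express a gene and less of its RNA per cell cannot be told apart.

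**Figure D1:**
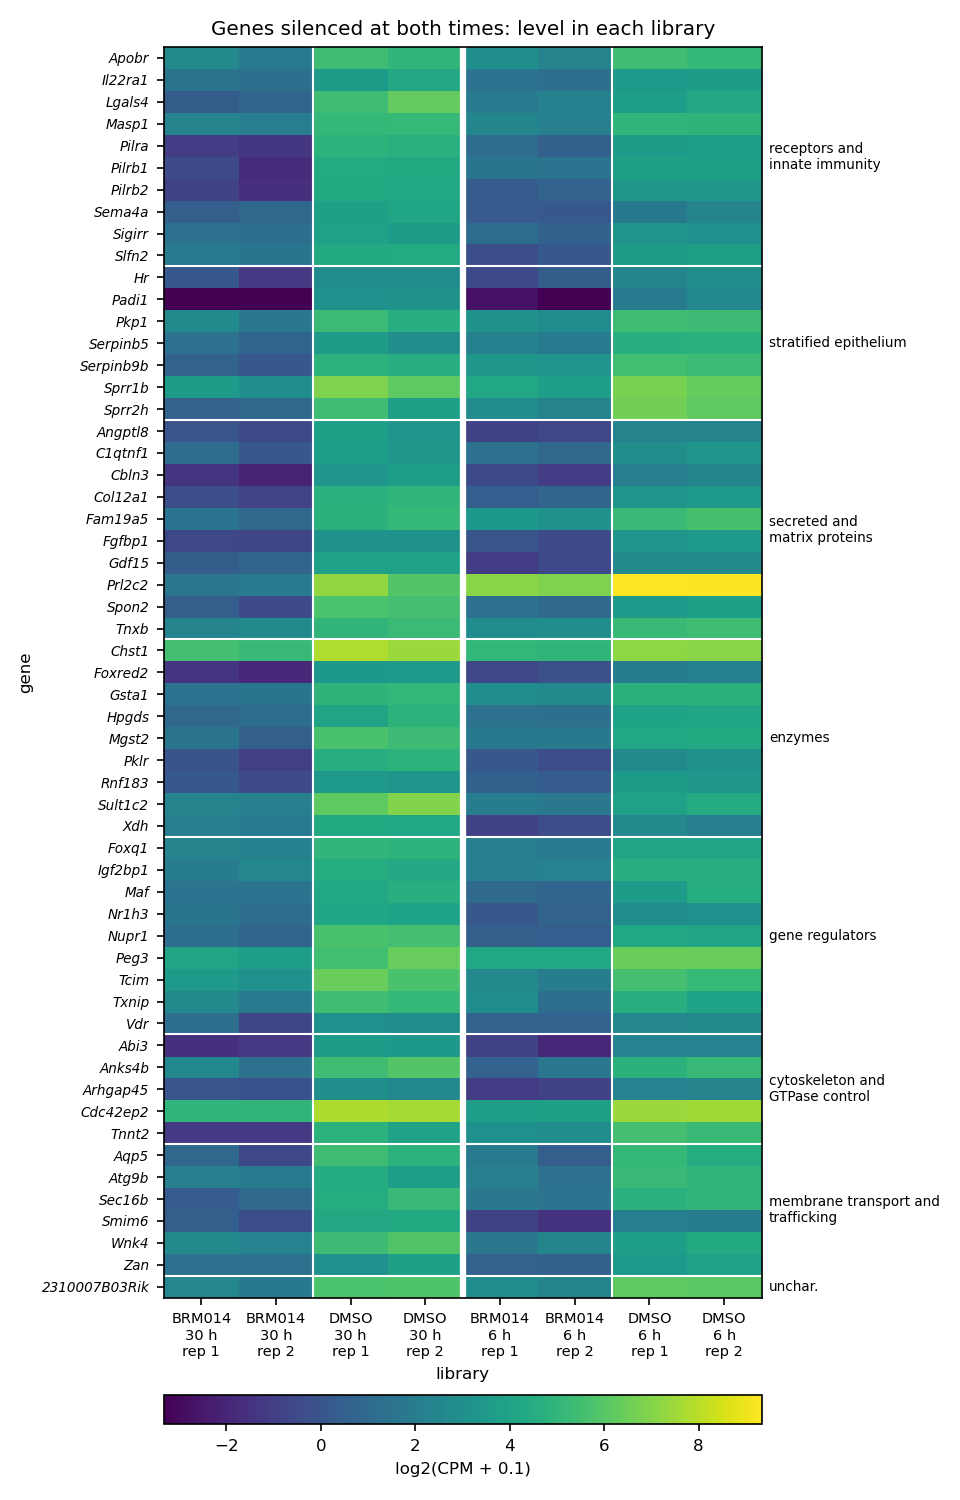
Level of the 57 genes in each of the 8 libraries, as log2(CPM + 0.1), with rows grouped by role and columns by treatment and time. The BRM014 columns are darker than the DMSO columns of the same time in every row, and Prl2c2 is the brightest row in the 6 h libraries.

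The set took 249 and 203 CPM in the BRM014 libraries at 30 h, against 2173 and 2018 CPM in the DMSO libraries. At 6 h it took 391 and 340.3 CPM with BRM014, against 2223 and 2159 CPM with DMSO. Prl2c2 alone made up much of the 6 h sums: without it they were 254 and 223 CPM with BRM014, against 1579 and 1543 CPM with DMSO.

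The genes closest to the limits were fixed by small differences. At 6 h C1qtnf1 and Wnk4 had 25.0% left and Sema4a 24.9%, while Tnfrsf1b, Cp and Ces1g, just outside, had 25.2%, 25.5% and 25.7%. Near the lower limit on level, Smim6, Foxred2 and Sema4a had DMSO means of 4.16, 4.33 and 4.34 CPM at 6 h, against 3.60, 3.49 and 3.46 CPM for Tspan11, Ppfibp2 and Xpnpep2, which met the limit on the share left at both times. The stricter demand that the higher BRM014 library stay at or under 25.0% of the lower DMSO library was met by 49 genes at 30 h and 45 at 6 h.

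**Figure D2:**
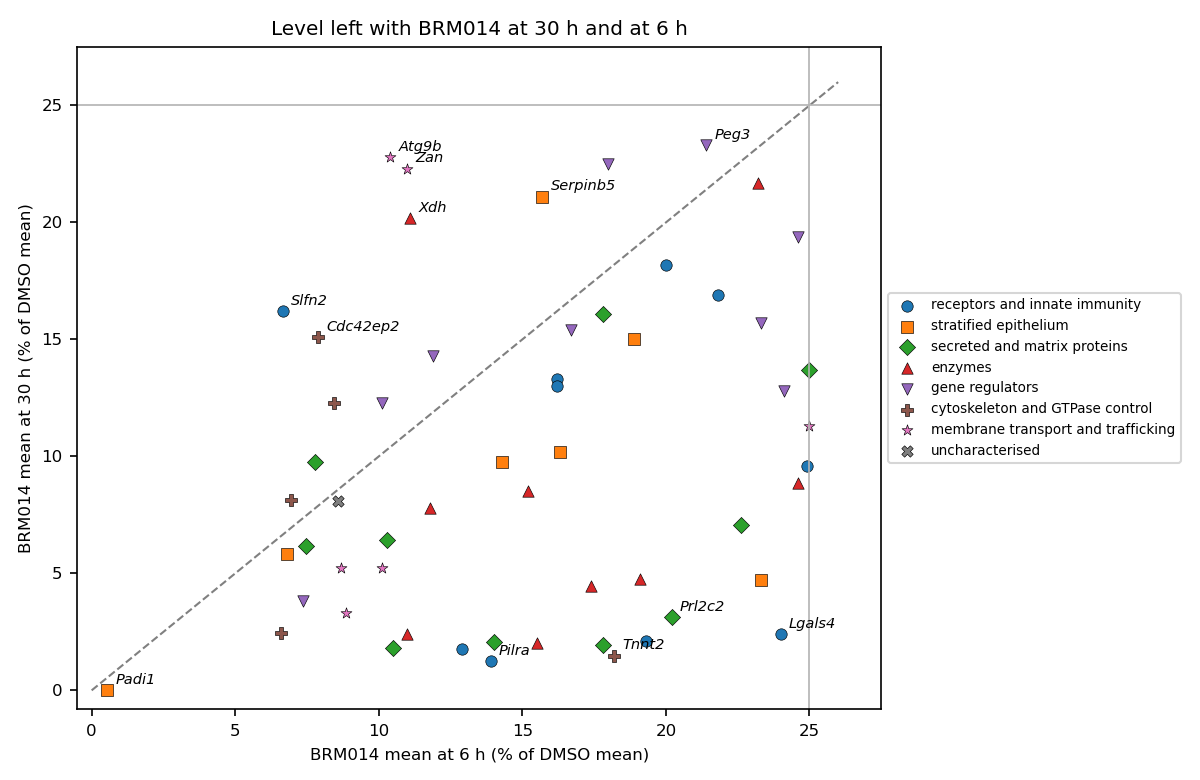
BRM014 mean as a percentage of the DMSO mean at 30 h (vertical axis) against the same at 6 h (horizontal axis), 1 point per gene, shaped and coloured by role. The dashed line marks equal shares and the grey lines the limit used to choose the genes; 44 points lie below the dashed line and 13 above it.

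The promoters of the set held few CpG dinucleotides beside those of other tested genes. A RefSeq table (GRCm38.p6) gave windows of 300 bases, 250 before and 50 after an annotated start, for 43 of the 57 genes (56 windows, since some genes have several starts whose windows can overlap). Their median ratio of observed to expected CpG was 0.246, against 0.763 in 11972 windows of 9377 other tested genes. A ratio of at least 0.6, a usual limit for a CpG island, was reached by 8.93% of the windows of the set, against 71.0% of the other windows and 52.3% of the windows of other genes called lower at both times. Their median GC content was 55.8%, against 61.0%. These shares are a description of annotated starts, and which starts the cells used was not measured.

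**Figure D3:**
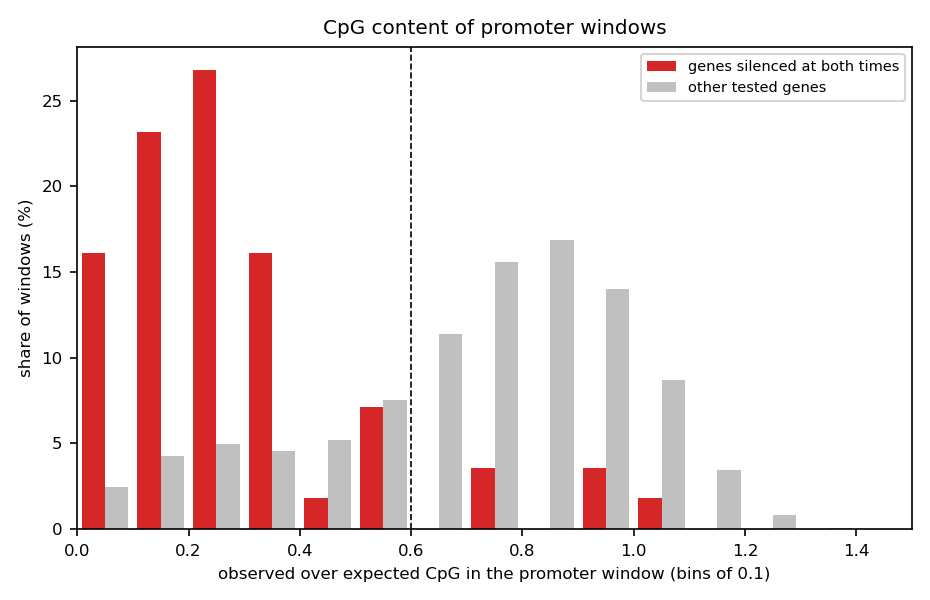
Share of promoter windows in each bin of observed over expected CpG, for the genes of the set (56 windows, red) and the other tested genes (11972 windows, grey). Most red bars stand left of the dashed line at 0.6 and most grey bars right of it.

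The letters TGANTCA, which AP-1 factors can bind, were found on either strand in 11 windows of the set (19.6%), against 5.28% of the other windows. Among windows with a CpG ratio below 0.6 the shares were 19.6% and 10.4%. Over all windows of other genes called lower at both times, whatever their CpG ratio, the share was 8.41%. TATAAA, the letters of a TATA box, stood in 10.7% of the windows of the set and 7.12% of the others, GGAATG, which TEAD factors can bind, in 14.3% and 12.2%, and the E-box CANNTG in 69.6% and 62.9%. Any overlap between motifs was allowed. A match is a description and not a bound site.

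Of the promoters of the set, those of Sprr1b, Sprr2h and Mgst2 held both TGANTCA and TATAAA, and they are shown because Sprr1b and Sprr2h are cornified envelope genes of 1 cluster and Mgst2 is an unrelated enzyme gene. The 250 bases before the start are written 5′ to 3′ on the gene's strand from GRCm38.p6, with both kinds of motif in capitals. The AP-1 letters begin 111, 198 and 52 bases before the start of Sprr1b, Sprr2h and Mgst2, and the TATA letters 30 bases before in Sprr1b, 29 in Sprr2h and, on opposite strands and overlapping, 34 and 32 in Mgst2.
Sprr1b, chr3:92438780-92439029 (- strand): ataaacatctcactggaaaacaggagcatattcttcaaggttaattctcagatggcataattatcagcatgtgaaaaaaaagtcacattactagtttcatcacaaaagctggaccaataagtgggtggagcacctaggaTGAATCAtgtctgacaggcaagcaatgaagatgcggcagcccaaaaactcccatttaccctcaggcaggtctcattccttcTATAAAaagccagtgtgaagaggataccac
Sprr2h, chr3:92385435-92385684 (+ strand): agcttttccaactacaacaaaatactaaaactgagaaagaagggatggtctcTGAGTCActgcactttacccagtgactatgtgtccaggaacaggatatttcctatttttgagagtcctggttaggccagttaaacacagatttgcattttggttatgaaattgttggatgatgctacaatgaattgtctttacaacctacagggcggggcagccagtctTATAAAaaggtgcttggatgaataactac
Mgst2, chr3:51660929-51661178 (+ strand): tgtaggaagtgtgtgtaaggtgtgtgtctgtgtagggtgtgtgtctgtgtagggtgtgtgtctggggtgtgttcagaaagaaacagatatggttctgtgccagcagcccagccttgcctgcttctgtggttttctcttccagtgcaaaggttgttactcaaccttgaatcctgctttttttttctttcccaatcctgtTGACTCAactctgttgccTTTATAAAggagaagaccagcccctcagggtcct

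The Pilr genes show the CpG-poor kind of promoter, and Aqp5 is shown beside them as 1 of the 5 windows with a ratio of at least 0.6. Here CG is in capitals. The 250 bases before Pilra and before Pilrb1 held 1 CG each, and those before the water channel gene Aqp5 held 38. When aligned, the upstream stretches of Pilra and Pilrb1 had 192 identical bases, 76.8% of 250, and those of Pilrb1 and Pilrb2 had 246, 98.4%. The Pilrb1 stretch as printed starts inside the Pilra stretch, and bases outside their overlap counted as not identical. The 76.8% thus reflects the offset between the annotated starts as well as differing bases.
Pilra, chr5:137836279-137836528 (- strand): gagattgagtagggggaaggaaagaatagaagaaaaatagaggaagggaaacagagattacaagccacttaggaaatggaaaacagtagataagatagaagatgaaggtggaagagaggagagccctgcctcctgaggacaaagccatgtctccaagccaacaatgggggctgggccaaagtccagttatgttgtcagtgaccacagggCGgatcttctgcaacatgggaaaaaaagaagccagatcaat
Pilrb1, chr5:137858050-137858299 (- strand): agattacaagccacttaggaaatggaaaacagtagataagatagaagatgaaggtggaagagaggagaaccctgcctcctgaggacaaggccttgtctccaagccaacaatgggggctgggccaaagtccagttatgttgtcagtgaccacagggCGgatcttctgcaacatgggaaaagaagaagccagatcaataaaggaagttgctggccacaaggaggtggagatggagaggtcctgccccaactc
Aqp5, chr15:99590778-99591027 (+ strand): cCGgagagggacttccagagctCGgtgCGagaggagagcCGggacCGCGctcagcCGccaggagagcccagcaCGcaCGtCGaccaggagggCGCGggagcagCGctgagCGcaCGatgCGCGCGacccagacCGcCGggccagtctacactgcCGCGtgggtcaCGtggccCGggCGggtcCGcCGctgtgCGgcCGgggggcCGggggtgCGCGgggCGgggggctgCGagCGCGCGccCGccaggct

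Among 10 receptors and immune proteins, the 3 paired immunoglobulin-like type 2 receptor genes had the least left at 30 h. Pilra (Entrez 231805) encodes an inhibitory receptor, and Pilrb1 (Entrez 170741) and Pilrb2 (Entrez 545812) encode activating partners. Pilra had 0.392 and 0.300 CPM with BRM014 at 30 h, against 29.2 and 26.2 CPM with DMSO. At 6 h it had 2.22 and 1.37 CPM with BRM014, against 12.5 and 13.3 CPM with DMSO. Its groups did not overlap at either time, with log2 fold changes of -6.37 ± 0.27 at 30 h and -2.94 ± 0.22 at 6 h. Pilrb2 had 0.448 and 0.234 CPM with BRM014 at 30 h, against 20.3 and 18.2 CPM with DMSO, and 1.19 and 1.46 CPM with BRM014 at 6 h, against 10.2 and 10.2 CPM with DMSO. Pilrb1 had 0.672 and 0.200 CPM with BRM014 at 30 h, against 21.3 and 20.4 CPM with DMSO, and 2.89 and 2.70 CPM with BRM014 at 6 h, against 14.6 and 14.3 CPM with DMSO. Pilrb2 had 1.77% of the DMSO mean left at 30 h and 12.9% at 6 h, and Pilrb1 2.10% and 19.3%; no BRM014 library reached a DMSO library.

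The 3 Pilr genes follow each other on chromosome 5, and reads of 1 copy can be counted at another. Of the 50-base stretches in their transcripts (the read length), 30.1% in Pilrb1, 29.2% in Pilrb2 and 7.57% in Pilra also occur in another gene, so the split between Pilrb1 and Pilrb2 is uncertain. Exons of Pilra overlap those of Zcwpw1 on the opposite strand, and whether the counting used strand is not given in the sources used here.

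Lgals4 (Entrez 16855), a galectin that binds sugar chains at epithelial surfaces, had 1.23 and 1.67 CPM with BRM014 at 30 h, against 41.8 and 78.9 CPM with DMSO. At 6 h it had 3.56 and 4.54 CPM with BRM014, against 13.7 and 20.1 CPM with DMSO. The BRM014 libraries were lower at both times, with log2 fold changes of -5.37 ± 0.33 and -2.13 ± 0.30 at 30 h and 6 h. Apobr (Entrez 171504), a receptor for apolipoprotein B on lipoproteins, had 6.16 and 3.71 CPM with BRM014 at 30 h, against 41.8 and 32.2 CPM with DMSO, and 7.90 and 4.89 CPM with BRM014 at 6 h, against 44.3 and 34.7 CPM with DMSO; its exons overlap Cln3 and Il27 on the opposite strand. Slfn2 (Entrez 20556), a Schlafen protein known from resting mouse T cells, had 3.75 and 2.90 CPM with BRM014 at 30 h, against 20.3 and 20.9 CPM with DMSO, and 0.723 and 1.03 CPM with BRM014 at 6 h, against 11.9 and 14.4 CPM with DMSO. It had more left at 30 h (16.2%) than at 6 h (6.66%).

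Sigirr (Entrez 24058), a receptor that restrains interleukin-1 and Toll-like receptor signalling, had 2.58 and 2.34 CPM with BRM014 at 30 h, against 15.1 and 11.9 CPM with DMSO, and 2.12 and 1.41 CPM with BRM014 at 6 h, against 9.65 and 8.01 CPM with DMSO. Masp1 (Entrez 17174), a protease of the lectin pathway of complement, had 4.98 and 4.21 CPM with BRM014 at 30 h, against 34.8 and 36.1 CPM with DMSO, and 5.53 and 4.46 CPM with BRM014 at 6 h, against 31.7 and 30.1 CPM with DMSO. The log2 fold changes at 30 h and 6 h were -2.49 ± 0.24 and -2.42 ± 0.25 for Sigirr and -2.99 ± 0.16 and -2.72 ± 0.16 for Masp1, with no overlap between the groups. Sema4a (Entrez 20351), a membrane semaphorin, had 1.34 and 1.74 CPM with BRM014 at 30 h, against 14.7 and 17.3 CPM with DMSO, and 1.14 and 1.03 CPM with BRM014 at 6 h, against 3.33 and 5.36 CPM with DMSO. The interleukin-22 receptor chain gene Il22ra1 had 16.9% left at 30 h and 21.8% at 6 h.

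Of 7 genes placed under stratified epithelium, Padi1 (Entrez 18599) had the least left in the whole set. It encodes a peptidylarginine deiminase, an enzyme that turns arginine into citrulline in epidermal proteins. At 30 h no count was found in the BRM014 libraries, which allows up to 0.0627 CPM over the group, against 351 counts in the DMSO libraries. That is at least 137-fold lower, with 3 counts over the group as the limit. At 6 h the BRM014 libraries held 1 count, against 198 in the DMSO libraries, a ratio of 206 (95% interval 36.6 to 8183, counting error only). In CPM it had 0 and 0 CPM with BRM014 at 30 h, against 7.97 and 9.08 CPM with DMSO, and 0.0517 and 0 CPM with BRM014 at 6 h, against 3.80 and 5.91 CPM with DMSO.

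Sprr1b (Entrez 20754) and Sprr2h (Entrez 20762) encode small proline-rich proteins, precursors of the cornified envelope. Sprr1b had 11.8 and 7.74 CPM with BRM014 at 30 h, against 118 and 72.7 CPM with DMSO, and 18.3 and 12.9 CPM with BRM014 at 6 h, against 112 and 80.0 CPM with DMSO. Sprr2h had 1.46 and 1.90 CPM with BRM014 at 30 h, against 43.8 and 14.0 CPM with DMSO, and 6.87 and 5.01 CPM with BRM014 at 6 h, against 101 and 73.6 CPM with DMSO. The DMSO libraries of Sprr2h at 30 h differed widely from each other, and both stayed above the BRM014 libraries. The log2 fold changes at 30 h and 6 h were -3.35 ± 0.26 and -2.71 ± 0.25 for Sprr1b and -4.08 ± 0.47 and -3.97 ± 0.40 for Sprr2h.

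Pkp1 (Entrez 18772), plakophilin 1 of the desmosome plaque, had 6.27 and 3.24 CPM with BRM014 at 30 h, against 39.8 and 23.6 CPM with DMSO, and 8.78 and 6.90 CPM with BRM014 at 6 h, against 42.4 and 40.8 CPM with DMSO. Serpinb5 (Entrez 20724), the gene of maspin, had 2.58 and 1.60 CPM with BRM014 at 30 h, against 12.3 and 7.54 CPM with DMSO, and 4.55 and 3.51 CPM with BRM014 at 6 h, against 24.2 and 27.0 CPM with DMSO. Serpinb9b (Entrez 20706), another intracellular serpin, had 1.51 and 1.03 CPM with BRM014 at 30 h, against 28.9 and 25.3 CPM with DMSO, and 10.4 and 9.56 CPM with BRM014 at 6 h, against 45.9 and 39.8 CPM with DMSO. Serpinb5 had more left at 30 h (21.1%) than at 6 h (15.7%), and Serpinb9b less (4.70% and 23.3%). The hair follicle corepressor gene Hr had 9.77% left at 30 h and 14.3% at 6 h.

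Of 10 genes of secreted and matrix proteins, Prl2c2 (Entrez 18811) encodes proliferin, a prolactin-family protein of the mouse placenta and of growing mouse cell lines. It had 3.02 and 3.67 CPM with BRM014 at 30 h, against 154 and 60.9 CPM with DMSO, and 137 and 117 CPM with BRM014 at 6 h, against 644 and 616 CPM with DMSO. Both BRM014 libraries lay below both DMSO libraries at each time, and in each treatment both 30 h libraries lay below both 6 h libraries. The log2 fold changes were -5.00 ± 0.36 at 30 h and -2.39 ± 0.28 at 6 h. Of its 50-base stretches, 83.3% occur in another gene, mostly in Prl2c3 (71.5%), so its counts may hold reads of its relatives.

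Spon2 (Entrez 100689), a secreted spondin of the matrix, had 1.34 and 0.668 CPM with BRM014 at 30 h, against 53.5 and 49.2 CPM with DMSO, and 2.58 and 1.89 CPM with BRM014 at 6 h, against 11.3 and 13.8 CPM with DMSO. Cbln3 (Entrez 56410), a cerebellin known from the cerebellum, had 0.280 and 0.134 CPM with BRM014 at 30 h, against 9.74 and 13.1 CPM with DMSO, and 0.620 and 0.386 CPM with BRM014 at 6 h, against 4.18 and 5.41 CPM with DMSO. At 30 h Cbln3 rested on 9 counts in the BRM014 libraries, against 475 in the DMSO libraries. Gdf15 (Entrez 23886), a stress-induced cytokine of the TGF-beta superfamily, had 1.23 and 1.67 CPM with BRM014 at 30 h, against 14.9 and 14.9 CPM with DMSO, and 0.362 and 0.600 CPM with BRM014 at 6 h, against 6.32 and 6.06 CPM with DMSO. Tnxb (Entrez 81877), the matrix protein tenascin X, had 4.98 and 6.31 CPM with BRM014 at 30 h, against 31.1 and 38.9 CPM with DMSO, and 7.08 and 7.59 CPM with BRM014 at 6 h, against 38.7 and 43.8 CPM with DMSO. The BRM014 libraries of Tnxb were lower, with log2 fold changes of -2.65 ± 0.17 at 30 h and -2.57 ± 0.16 at 6 h.

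Of the other secreted proteins, Col12a1, a collagen of the fibril surface, had 2.08% left at 30 h and 14.0% at 6 h. Fam19a5, a small secreted protein, had 7.07% and 22.6% left. Angptl8, a regulator of lipoprotein lipase, had 6.42% and 10.3%, and Fgfbp1, which binds fibroblast growth factors, 6.17% and 7.45%. C1qtnf1, of the C1q and tumour necrosis factor related family, had 13.7% and 25.0%.

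Among 9 enzyme genes, Sult1c2 (Entrez 69083), a cytosolic sulfotransferase, had 4.87 and 4.51 CPM with BRM014 at 30 h, against 73.1 and 124 CPM with DMSO, and 3.82 and 3.21 CPM with BRM014 at 6 h, against 15.0 and 21.9 CPM with DMSO. The glutathione transferase gene Gsta1 had 8.87% left at 30 h and 24.6% at 6 h. The microsomal glutathione transferase gene Mgst2 had 4.47% left at 30 h and 17.4% at 6 h. The glutathione-dependent prostaglandin D synthase gene Hpgds had 8.52% and 15.2%. Of the 50-base stretches of Gsta1, 53.9% occur in another gene, most of them in Gsta2 (46.6%).

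Chst1 (Entrez 76969), which adds sulfate to keratan sulfate chains, had 47.2 and 38.6 CPM with BRM014 at 30 h, against 223 and 172 CPM with DMSO, and 33.3 and 31.3 CPM with BRM014 at 6 h, against 143 and 135 CPM with DMSO. It was lower, with log2 fold changes of -2.24 ± 0.13 at 30 h and -2.19 ± 0.13 at 6 h. Xdh (Entrez 22436), xanthine dehydrogenase, an enzyme of purine breakdown that also sits on milk fat globules, had 4.31 and 3.57 CPM with BRM014 at 30 h, against 20.4 and 18.6 CPM with DMSO, and 0.465 and 0.686 CPM with BRM014 at 6 h, against 6.04 and 4.36 CPM with DMSO. Both treatments had more Xdh at 30 h than at 6 h. Foxred2 (Entrez 239554), a flavoprotein of the endoplasmic reticulum, had 0.280 and 0.167 CPM with BRM014 at 30 h, against 10.8 and 11.1 CPM with DMSO, and 0.568 and 0.771 CPM with BRM014 at 6 h, against 3.99 and 4.66 CPM with DMSO. The liver-type pyruvate kinase gene Pklr had 2.40% left at 30 h and 11.0% at 6 h, with exons that overlap Hcn3 on the opposite strand. The ubiquitin ligase gene Rnf183 had 7.80% and 11.8% left.

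Among 9 gene regulators, Peg3 (Entrez 18616), an imprinted zinc finger gene, kept the highest share at 30 h. It had 16.9 and 13.6 CPM with BRM014 at 30 h, against 45.7 and 84.9 CPM with DMSO, and 19.0 and 19.4 CPM with BRM014 at 6 h, against 88.7 and 90.3 CPM with DMSO. Igf2bp1 (Entrez 140486), an RNA-binding protein of fetal and tumour cells, had 3.98 and 5.71 CPM with BRM014 at 30 h, against 22.9 and 20.1 CPM with DMSO, and 4.13 and 4.80 CPM with BRM014 at 6 h, against 25.6 and 24.1 CPM with DMSO. The log2 fold changes at 30 h and 6 h were -2.15 ± 0.22 and -2.30 ± 0.22 for Peg3 and -2.15 ± 0.19 and -2.56 ± 0.19 for Igf2bp1.

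Tcim (Entrez 69068), a small regulator described in Wnt signalling, had 11.3 and 8.45 CPM with BRM014 at 30 h, against 85.9 and 52.4 CPM with DMSO, and 6.04 and 3.86 CPM with BRM014 at 6 h, against 47.7 and 35.7 CPM with DMSO. Maf (Entrez 17132), a basic leucine zipper factor related to AP-1, had 2.74 and 2.77 CPM with BRM014 at 30 h, against 19.4 and 25.4 CPM with DMSO, and 1.96 and 1.63 CPM with BRM014 at 6 h, against 12.8 and 22.7 CPM with DMSO. The BRM014 libraries of both genes were lower at each time, with no overlap. Among nuclear receptor genes, Nr1h3, the oxysterol receptor LXR-alpha, had 15.4% left at 30 h and 16.7% at 6 h. Vdr, the vitamin D receptor, had 19.4% and 24.6% left. The forkhead factor gene Foxq1 had 15.7% and 23.3%. The stress-response gene Nupr1 had 3.82% left at 30 h and 7.35% at 6 h. Txnip, whose protein binds thioredoxin, had 12.8% and 24.1%. The BRM014 libraries of Txnip at 6 h stood apart from each other, at 7.13 and 2.31 CPM.

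Of 5 cytoskeletal genes, Cdc42ep2 (Entrez 104252) encodes an effector of the GTPase CDC42 that shapes actin filaments. It had 31.5 and 31.2 CPM with BRM014 at 30 h, against 219 and 197 CPM with DMSO, and 13.5 and 14.4 CPM with BRM014 at 6 h, against 172 and 183 CPM with DMSO. The replicates of each group differed little, and the log2 fold changes were -2.76 ± 0.10 at 30 h and -3.75 ± 0.11 at 6 h. Anks4b (Entrez 72074), a scaffold of the links between microvilli, had 5.94 and 2.57 CPM with BRM014 at 30 h, against 43.3 and 61.2 CPM with DMSO, and 1.45 and 3.04 CPM with BRM014 at 6 h, against 27.6 and 37.0 CPM with DMSO. Tnnt2 (Entrez 21956), the cardiac muscle troponin T, had 0.336 and 0.334 CPM with BRM014 at 30 h, against 29.1 and 15.8 CPM with DMSO, and 8.16 and 7.33 CPM with BRM014 at 6 h, against 48.3 and 36.8 CPM with DMSO. Its level left at 30 h, 1.49%, was far under that at 6 h, 18.2%.

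Abi3 (Entrez 66610), of the ABI family that works with the actin-branching WAVE complex, had 0.224 and 0.334 CPM with BRM014 at 30 h, against 11.9 and 10.7 CPM with DMSO, and 0.465 and 0.171 CPM with BRM014 at 6 h, against 4.85 and 4.81 CPM with DMSO. Its exons overlap Gngt2, Phospho1 and Zfp652 on the opposite strand. The GTPase-activating protein gene Arhgap45 had 12.3% left at 30 h and 8.45% at 6 h.

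Among 6 genes placed under membrane transport and traffic is Atg9b (Entrez 213948), a membrane protein of autophagy. It had 4.42 and 3.51 CPM with BRM014 at 30 h, against 21.8 and 13.0 CPM with DMSO. At 6 h it had 4.39 and 2.66 CPM with BRM014, against 36.9 and 31.0 CPM with DMSO. Zan (Entrez 22635), the sperm surface protein zonadhesin, had 2.52 and 2.60 CPM with BRM014 at 30 h, against 8.41 and 14.6 CPM with DMSO, and 1.50 and 1.37 CPM with BRM014 at 6 h, against 11.0 and 15.2 CPM with DMSO. Both had more left at 30 h (22.8% and 22.3%) than at 6 h (10.4% and 11.0%). Exons of Atg9b overlap Nos3, and those of Zan overlap Ephb4, on the opposite strand.

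Smim6 (Entrez 68528), a small membrane protein, had 1.34 and 0.734 CPM with BRM014 at 30 h, against 19.5 and 20.3 CPM with DMSO, and 0.465 and 0.257 CPM with BRM014 at 6 h, against 4.37 and 3.96 CPM with DMSO. Aqp5 had 3.32% left at 30 h and 8.87% at 6 h. Wnk4, a kinase that regulates ion transport, had 11.3% and 25.0%, and Sec16b, which organises exit sites of the endoplasmic reticulum, 5.23% and 10.1%. The uncharacterised gene 2310007B03Rik had 8.09% left at 30 h and 8.59% at 6 h.

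In DMSO, more of the 57 genes were higher at 30 h than at 6 h than were lower. By edgeR's quasi-likelihood test with Benjamini-Hochberg adjustment over all 11835 tested genes, 24 genes (42.1%) were higher at 30 h, where 18.0% of all tested genes were, and 7 (12.3%) were lower, where 17.2% were; 26 did not pass. With the replicate number as a block 11 (19.3%) were lower, where 20.3% of all tested genes were. The median log2 fold change was 0.39 over the 57 genes and 0.01 over all tested genes. The choice of the genes set the same lower limit on their level at both times and used these DMSO libraries, so the shares are a description.

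Sult1c2 rose most in DMSO, with 73.1 and 124 CPM at 30 h, against 15.0 and 21.9 CPM at 6 h in the DMSO libraries (log2 fold change 2.33 ± 0.22, adjusted p = 1.8e-05). Smim6 rose by 2.17 ± 0.23 on the log2 scale, Spon2 by 1.94 ± 0.18, Xdh by 1.81 ± 0.21 and Sema4a by 1.80 ± 0.24, each with all 30 h libraries above the 6 h libraries. These are a sulfotransferase, a membrane protein, a matrix protein, a purine enzyme and a semaphorin.

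Prl2c2 fell furthest in DMSO, with 154 and 60.9 CPM at 30 h, against 644 and 616 CPM at 6 h (log2 fold change -2.65 ± 0.28, adjusted p = 3.86e-05). Sprr2h changed by -1.71 ± 0.35, Serpinb5 by -1.47 ± 0.23, Atg9b by -1.07 ± 0.23 and Tnnt2 by -1.02 ± 0.22. Without DMSO 6 h replicate 1 the calls of Tnnt2 (adjusted p = 0.0662) and Atg9b (adjusted p = 0.0512) ended. Leaving out either DMSO 6 h replicate 2 or DMSO 30 h replicate 1 ended those of Chst1 (adjusted p of at most 0.202), Fam19a5 (0.195) and Tcim (0.427), and that of Txnip. Slfn2 (0.152) lost its call without DMSO 6 h replicate 1 or either DMSO 30 h library, and Txnip also without DMSO 6 h replicate 1. DESeq2 ended the calls of Txnip (adjusted p = 0.270) and Tcim, library totals that of Fam19a5, and the fit of 4 libraries or leaving out either BRM014 30 h library that of Tcim. Of the 31 calls, 24 held under every alternative.

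With BRM014, more of the 57 genes were lower at 30 h than at 6 h than were higher. By the same test, 18 genes (31.6%) were lower at 30 h, where 16.9% of all tested genes were, and 8 (14.0%) were higher, where 19.6% were; 31 did not pass. Limits on the BRM014 means at both times chose the genes, so these shares are a description as well. The median log2 fold change was -0.42 over the 57 genes and 0.01 over all tested genes. These counts leaned on single libraries. Both counts dropped without either BRM014 6 h library, and the higher count dropped without BRM014 30 h replicate 1. Without BRM014 30 h replicate 2 the lower count dropped so far that lower genes hardly outnumbered higher ones. The excess of lower genes thus leaned on that library. All tested genes also passed less often without any of these libraries.

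Prl2c2 fell most, with 3.02 and 3.67 CPM at 30 h, against 137 and 117 CPM at 6 h in the BRM014 libraries (log2 fold change -5.26 ± 0.36, adjusted p = 1.08e-06). Tnnt2 had 0.336 and 0.334 CPM at 30 h, against 8.16 and 7.33 CPM at 6 h (log2 fold change -4.54 ± 0.41, adjusted p = 8.05e-06). Serpinb9b changed by -3.06 ± 0.21, Pilrb1 by -2.88 ± 0.36 and Pilra by -2.42 ± 0.36 on the log2 scale. In all 5 genes both 30 h libraries lay below both 6 h libraries, and none of these calls ended under any alternative.

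Of the 8 genes higher at 30 h with BRM014, Xdh rose most, with 4.31 and 3.57 CPM at 30 h, against 0.465 and 0.686 CPM at 6 h (log2 fold change 2.69 ± 0.31, adjusted p = 4.84e-05). Slfn2 rose by 1.84 ± 0.27, Gdf15 by 1.55 ± 0.35, Smim6 by 1.43 ± 0.43 and Cdc42ep2 by 1.12 ± 0.10. The call of Gdf15 ended without BRM014 6 h replicate 1 (adjusted p = 0.0506), and that of Smim6 when BRM014 6 h replicate 2 or BRM014 30 h replicate 1 was left out, or when the fit held the 4 libraries of the comparison alone (adjusted p of at most 0.174). Of the 26 calls, 11 held under every alternative: the 5 lower genes just named, Pilrb2, Gsta1 and Fam19a5, and the higher genes Xdh, Slfn2 and Cdc42ep2. Without BRM014 6 h replicate 1 the calls of Serpinb5, Pkp1, Sec16b, Nr1h3, Chst1, Mgst2, Sprr2h, Sprr1b and Spon2 also ended, and without BRM014 6 h replicate 2 those of Pkp1, Sec16b, Chst1, Mgst2, Lgals4, Tcim, Col12a1 and Foxred2. Without BRM014 30 h replicate 1 those of Sec16b, Nr1h3, Chst1, Sprr2h, Lgals4 and Tcim ended, and without BRM014 30 h replicate 2 those of Serpinb5, Pkp1, Mgst2, Sprr2h, Sprr1b, Spon2, Col12a1 and Foxred2. Leaving out either DMSO 6 h library ended those of Pkp1, Sec16b and Chst1. Library totals ended those of Pkp1, Mgst2 and Sprr1b, and DESeq2 those of Pkp1 and Sprr1b. The filter of 1 CPM in at least 4 libraries ended that of Sprr1b, and the fit of 4 libraries that of Mgst2. The highest adjusted p among these was 0.394, for Pkp1, and no direction changed.

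Set side by side, 7 genes were higher at 30 h in both treatments, 6 were lower in both, and 7 were lower with BRM014 and higher with DMSO. None was higher with BRM014 and lower with DMSO, and 20 passed in neither. Among the 7 that moved apart, Pilra changed by -2.42 ± 0.36 with BRM014 and 1.01 ± 0.18 with DMSO, and Lgals4 by -1.49 ± 0.39 and 1.76 ± 0.26. Joint counts of this kind were not computed for all tested genes, and levels at both times chose the set, so they are a description. The difference between the treatments over time was not tested.

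**Figure D4:**
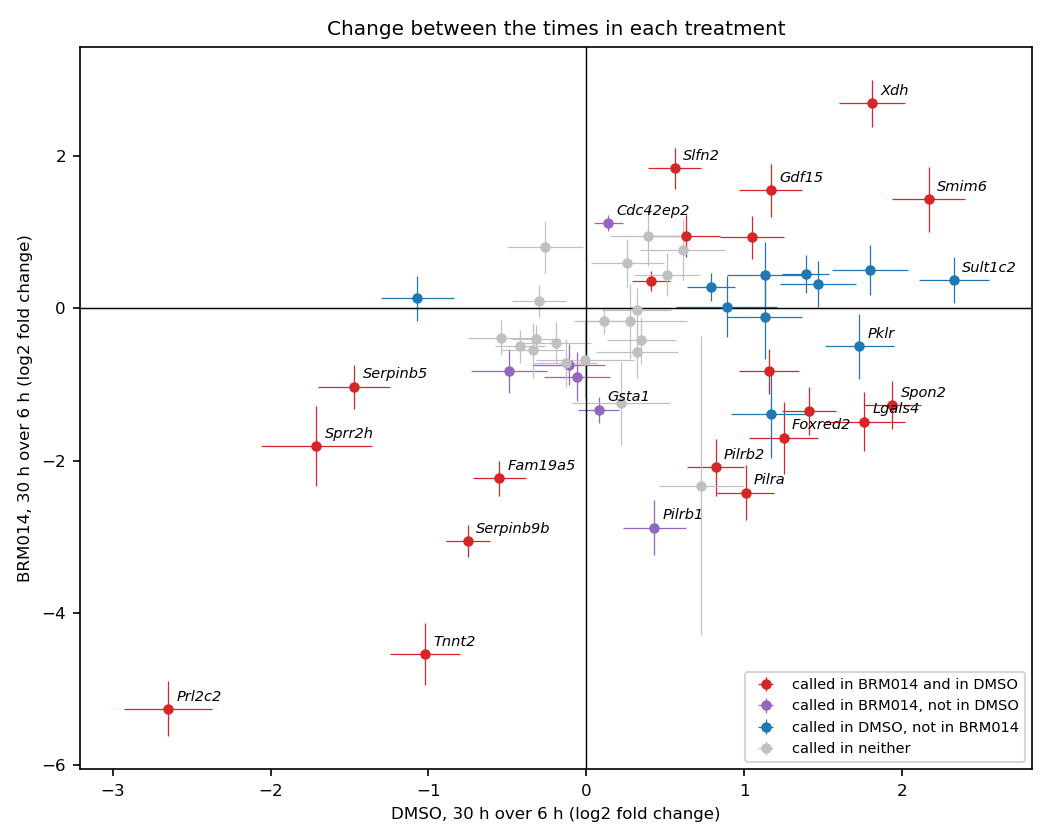
Log2 fold change of 30 h over 6 h with BRM014 (vertical axis) against the same with DMSO (horizontal axis) for the 57 genes, with standard errors from the edgeR fit as bars; colours show in which treatment a gene passed the test. Prl2c2 and Tnnt2 lie at the lower left, Xdh at the upper right, and the Pilr genes below 0 with BRM014 and above 0 with DMSO.

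The genes next to the set on the chromosome were called lower with BRM014 more often than tested genes at large. The set lies on 17 chromosomes, and 3 pairs of its genes are direct neighbours in the RefSeq gene order (Tnnt2 with Pkp1, Pilra with Pilrb1, and Pilrb1 with Pilrb2). Apart from these and from the genes left out for their prefix, there were 107 nearest neighbours, of which 67 were tested. At 30 h 29 (43.3%) were lower with BRM014, where 19.1% of all tested genes were, and 7 (10.4%) were higher, where 16.8% were. At 6 h 23 (34.3%) were lower, where 14.4% were, and 6 (8.96%) were higher, where 9.35% were. The median log2 fold changes were -0.25 and -0.21 at 30 h and 6 h.

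Some neighbours are family relatives, share 50-base stretches or overlap in exons with a gene of the set. Among the 51 others, 22 (43.1%) were lower and 3 (5.88%) higher at 30 h, and 13 (25.5%) were lower and 4 (7.84%) higher at 6 h. Without BRM014 6 h replicate 2, 15 of 70 tested neighbours were lower at 6 h, where 8.27% of all tested genes were, and 2 were higher. Without DMSO 6 h replicate 1, 3 were higher. Tested genes at large also passed less often without these libraries. No test of the excess was made.

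The lowest neighbours at 30 h were Smim5, Prl2c5, Sprr2g, Gngt2 and Prl2c3. Smim5, beside Smim6, had no count with BRM014 at 30 h, against 50 with DMSO, at least 19.5-fold lower with 3 counts over the group as the limit. Prl2c5 had none, against 20 counts, at least 7.80-fold lower by the same limit. Sprr2g changed by -5.88 ± 0.36, Gngt2, whose exons overlap Abi3, by -5.17 ± 0.41, and Prl2c3 by -4.13 ± 0.49. At 6 h the lowest were the desmosomal Pkp3 beside Sigirr (-3.91 ± 0.42), Sprr2g (-3.19 ± 0.36), Sned1 beside 2310007B03Rik (-2.33 ± 0.30), Gngt2 (-2.11 ± 0.36) and Gm10639 (-2.09 ± 0.49). The call of Gm10639 at 6 h ended when either DMSO 6 h replicate 2 or BRM014 6 h replicate 2 was left out. Gm10639 lies beside Gsta1, and 31.3% of the 50-base stretches of Gsta1 occur in it. For Prl2c2 the shares are 71.5% in Prl2c3 and 22.2% in Prl2c5. The counts of these neighbours may thus hold reads of genes of the set.

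Among higher neighbours, Sprr3, beside Sprr1b, had 18 counts with BRM014 at 30 h and 53 at 6 h, against none with DMSO at either time, which is at least 5.13-fold and 17.0-fold higher with 3 counts over the group as the limit. The Mgst2 neighbour 5031434O11Rik had 25 counts with BRM014 at 30 h, against 1 with DMSO, a ratio of 21.4 (95% interval 3.50 to 877, counting error only), and 20 at 6 h, against 2, a ratio of 9.60 (2.33 to 84.8). Its 6 h call ended under 6 alternatives and its 30 h call without DMSO 30 h replicate 2. Cd109, beside Col12a1, had 104 and 90.9 CPM with BRM014 at 30 h, against 18.2 and 13.5 CPM with DMSO, a log2 fold change of 2.59 ± 0.13, and changed by 1.30 ± 0.13 at 6 h. The Pklr neighbour Hcn3 (1.64 ± 0.38 at 30 h and 1.20 ± 0.40 at 6 h), the Atg9b neighbour Nos3 (2.14 ± 0.60 at 30 h) and Engase (0.77 ± 0.19 at 6 h) were also called higher. Those calls ended for Hcn3 without BRM014 30 h replicate 2 at 30 h and under 4 alternatives at 6 h, for Nos3 under 3, and for Engase without BRM014 6 h replicate 2.

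Relatives in the same gene families did not all follow. The set has genes from 23 families named by symbol after the data were seen, with 58 tested relatives outside it. At 30 h 26 relatives (44.8%) were lower with BRM014 and 10 (17.2%) higher, where 19.1% and 16.8% of all tested genes were. At 6 h 35 (60.3%) were lower and 6 (10.3%) higher, where 14.4% and 9.35% were. The 3 Prl2c relatives and Gsta2 share 50-base stretches with a gene of the set. The 6 h count of lower relatives was 20 without BRM014 6 h replicate 2 and 23 without either BRM014 6 h replicate 1 or DMSO 6 h replicate 1. Without these libraries tested genes at large also passed less often at 6 h. The medians were -0.39 and -0.66 at 30 h and 6 h.

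Examples, picked after their values were seen, show both directions. Cdc42ep4, a relative of Cdc42ep2, rose with BRM014 by 1.39 ± 0.10 at 30 h and 1.40 ± 0.11 at 6 h. Angptl4, a relative of Angptl8 that inhibits lipoprotein lipase, rose by 2.43 ± 0.16 and 1.85 ± 0.16. Padi2 changed by -2.72 ± 0.18 and -1.40 ± 0.17, Lgals2 by -3.30 ± 0.12 and -0.70 ± 0.11, and Mgst1 by -1.78 ± 0.12 and -1.58 ± 0.13. Serpinb9 was higher by 0.86 ± 0.12 at 30 h and changed by -0.85 ± 0.13 at 6 h. These calls held under every alternative run.

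**Figure D5:**
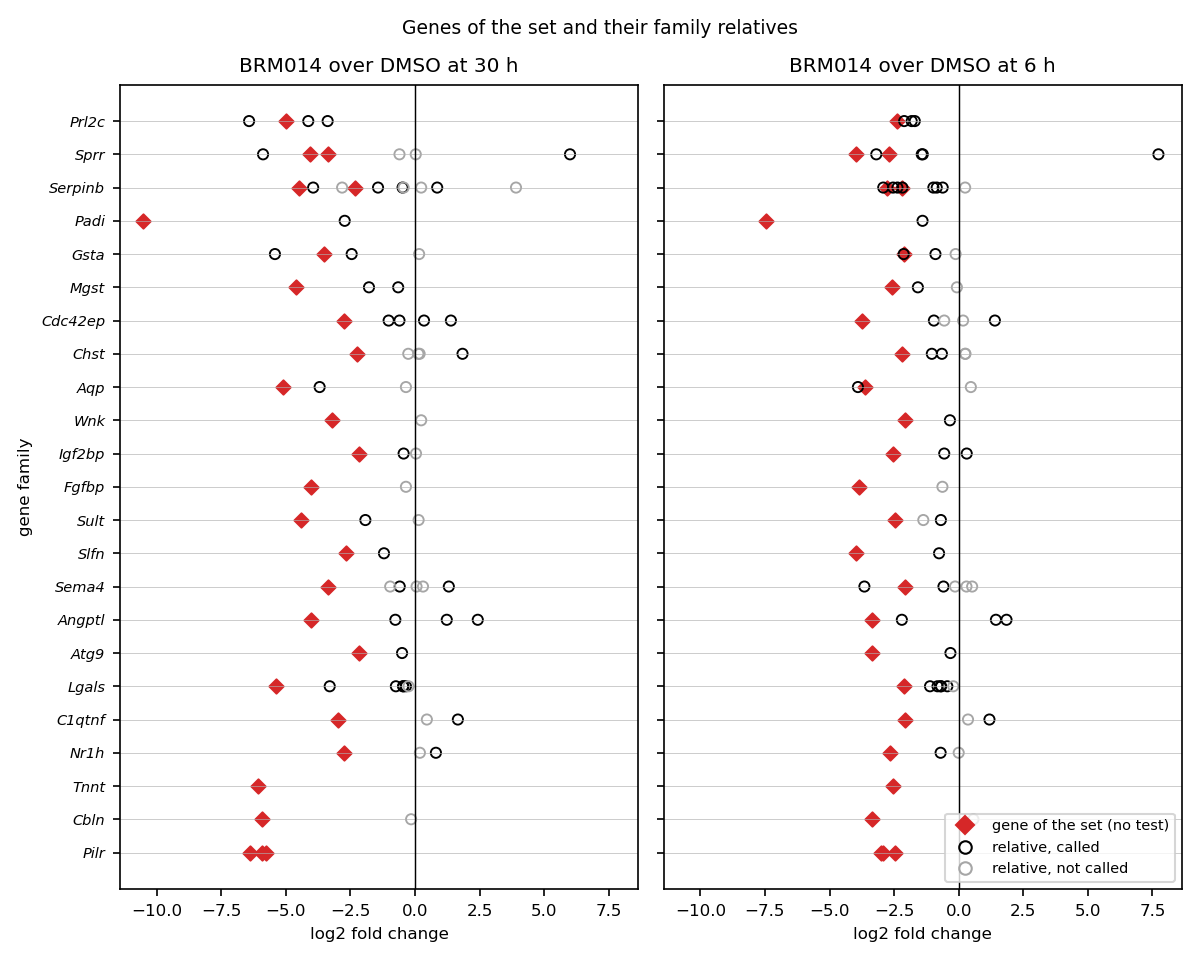
Log2 fold change of BRM014 over DMSO at 30 h (left) and 6 h (right) for the genes of the set (red diamonds, chosen by these values) and the tested relatives in the same families (circles, black where called and grey where not). Circles lie on both sides of 0 in the Sprr, Cdc42ep and Angptl families; fitted values of genes with no count in 1 group, such as Padi1 and Sprr3, depend on the prior count.

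Genes of pathway lists around the set moved in both directions. Of 117 tested list genes outside the set, 30 (25.6%) were lower and 32 (27.4%) higher with BRM014 at 30 h, where 19.1% and 16.8% of all tested genes were. At 6 h 25 (21.4%) were lower, where 14.4% of all were, and 14 of the 117 were higher, where 9.35% were. The lower genes at both times include Il18rap and Il1rn, which met the limits of the set and were left out only by prefix. Their calls rest on the levels that those limits used and are a description. The median over all tested genes was 0 at 30 h and -0.01 at 6 h. Without BRM014 6 h replicate 2 the 6 h counts were 16 lower and 7 higher of 120 (13.3% and 5.83%), where 8.27% and 3.44% of all tested genes were. The single lists that follow hold few genes each and are given as counts. Complement, which includes Masp1, had 6 lower and 6 higher of 14 at 30 h, and 3 lower and 1 higher at 6 h, with medians of 0.07 and -0.02. Cfb, complement factor B, changed by -7.29 ± 0.31 at 30 h and -1.77 ± 0.28 at 6 h, and C3 by -1.98 ± 0.20 and -1.32 ± 0.28. C1s1 changed by -3.37 ± 0.29 at 30 h and by -1.30 ± 0.39 at 6 h, where its call ended under 3 alternatives. The complement inhibitor gene Cd59a changed by 2.02 ± 0.28 at 30 h and 1.23 ± 0.35 at 6 h. Of the other genes higher at 30 h, named here after their values were seen, the inhibitor gene Cd55 changed by 1.83 ± 0.25 and Clu, clusterin, by 1.07 ± 0.13. The 6 h call of C3 ended without DMSO 6 h replicate 2, and that of Cd59a when either DMSO 6 h replicate 1 or BRM014 6 h replicate 2 was left out.

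The interleukin-1 family with interleukin-18, a list that includes Sigirr, had 7 lower and 1 higher of 13 at each time, with medians of -0.31 at 30 h and -0.39 at 6 h. The signalling protein gene Irak2 changed by -1.60 ± 0.14 at 30 h and -2.22 ± 0.15 at 6 h; Il18rap and Il1rn, counted among the 7, met the limits of the set and were left out by prefix. The desmosome list, which includes Pkp1, had 4 lower and 1 higher of 7 at each time, with medians of -0.53 and -0.72. In it Jup, plakoglobin, changed by -1.01 ± 0.11 at 30 h and -0.87 ± 0.11 at 6 h, and Pkp3 by -3.24 ± 0.50 and -3.91 ± 0.42. Perp changed by -0.53 ± 0.11 at 30 h and -0.72 ± 0.11 at 6 h, and Dsp, desmoplakin, by -0.76 ± 0.18 and -1.30 ± 0.18.

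The WAVE complex and ABI family, which includes Abi3, had none lower and 3 higher of 8 at 30 h, and none lower and 1 higher at 6 h, with medians of 0.18 and 0.12. Abi2 rose by 0.95 ± 0.12 at 30 h and 0.56 ± 0.12 at 6 h, while the further calls at 30 h, Nckap1 (0.33 ± 0.10) and Wasf1 (0.37 ± 0.13), ended under 3 and 5 alternatives, and that of Abi2 at 6 h without BRM014 6 h replicate 2. Purine breakdown, which includes Xdh, had 1 lower and 3 higher of 11 at 30 h, and 2 lower and none higher at 6 h, with medians of 0.07 and -0.01. There Adk (0.47 ± 0.10), Nt5e (1.08 ± 0.22) and Gda (1.54 ± 0.40) were higher at 30 h, and Ada (-0.92 ± 0.18) and Ampd3 (-0.52 ± 0.15) lower at 6 h. Ada was lower at 30 h too (-0.55 ± 0.17). The call of Gda ended when either DMSO 30 h replicate 2 or BRM014 30 h replicate 1 was left out, and that of Ampd3 under 4 alternatives.

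AP-1 factors, a list that includes Maf, had 2 lower and 7 higher of 13 at 30 h, and 2 lower and 3 higher at 6 h, with medians of 0.44 and 0.05. Atf3 rose by 2.17 ± 0.16 and 1.02 ± 0.16, and Mafk by 0.77 ± 0.11 and 0.58 ± 0.11, at 30 h and 6 h. Junb changed by -0.72 ± 0.17 and -1.06 ± 0.18 at these times. Fos changed by -2.12 ± 0.21 at 30 h and was not called at 6 h (0.05 ± 0.22). Wnt ligands and receptors, with no gene in the set, had 7 lower and 6 higher of 25 at 30 h, and 7 lower and 5 higher at 6 h, with medians of -0.07 and 0.04. Porcn changed by -1.15 ± 0.18 at 30 h and -1.69 ± 0.19 at 6 h, and Fzd7 by -1.49 ± 0.14 and -1.08 ± 0.14. Fzd2 changed by 1.50 ± 0.14 at 30 h and 0.96 ± 0.14 at 6 h, and Wnt7a by -1.83 ± 0.31 and -3.87 ± 0.27. The SWI/SNF subunit list had 3 lower and 5 higher of 26 at 30 h, and none lower and 2 higher at 6 h, with medians of -0.04 and 0.06.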

How the data were processed

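Total RNA from 8 libraries of NMuMG cells was sequenced from strand-specific libraries in single reads of 50 bases, per the labels' protocols. The submitters' processing notes name the build mm9, Subread, SAMtools 0.1.19 and featureCounts; which annotation and which strand setting were used is not given in the sources used here. The authors deposited 1 table of raw counts, whole numbers with unequal totals.

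CPM were computed from column totals. Counts were tested with edgeR 4.0.16 (R 4.3.3): filterByExpr kept 11835 of 21240 genes, TMM factors were 0.935 to 1.05, and 1 quasi-likelihood fit of 4 group means had 4 residual degrees of freedom, with a common biological coefficient of variation of 9.30%. Tests were 2-sided, with Benjamini-Hochberg adjustment within each comparison and 0.05 as the threshold. A standard error is the size of the log2 fold change divided by the square root of F. The fit was tested on simulated data. All values are n = 2 against n = 2 libraries. Intervals and limits at 0 counts cover counting error only.

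The genes of the set, the lists, families, motifs and the rule for named genes were chosen with earlier results of these data known. Named genes were those with the 12 highest DMSO means, the 6 highest and 6 lowest shares left at 30 h, the 5 highest and 5 lowest changes in each time comparison, members of the lists, up to 5 extreme neighbours a time and direction, and, of the 3 list genes with the smallest p per list and time, those called; some that the rule names among SWI/SNF subunits and markers are given as counts. Others are named by role. Promoter sequences and gene order are from RefSeq (GRCm38.p6), and shared 50-base stretches and exon overlaps from GENCODE transcripts of GRCm38; no coordinate was converted to mm9. Entrez identifiers of 21094 genes, with all 57 of the set among them, were found in the RefSeq table. CPM are not divided by gene length, so levels are not compared between genes as molar amounts. Alternatives were RLE scaling, library totals, other filters, DESeq2 1.42.0, separate fits, a replicate block and leaving out each library.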

Additional observations from a re-analysis of the deposited data

Results flagged for a closer look

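In 10 genes of the set every BRM014 library at 30 h lay below both BRM014 libraries at 6 h, while every DMSO library at 30 h lay above both DMSO libraries at 6 h. The share of all tested genes with this pattern was not computed. Levels at both times entered the choice of the genes, so the count is a description. The difference between the treatments was not tested. The log2 fold changes of 30 h over 6 h were -2.88 with BRM014 and 0.43 with DMSO for Pilrb1, -2.42 and 1.01 for Pilra, and -2.09 and 0.82 for Pilrb2. They were -1.70 with BRM014 and 1.25 with DMSO for Foxred2, -1.49 and 1.76 for Lgals4, -1.39 and 1.17 for Cbln3, and -1.35 and 1.41 for Col12a1. They were -1.33 with BRM014 and 0.08 with DMSO for Gsta1, -1.27 and 1.94 for Spon2, and -0.83 and 1.16 for Mgst2. By edgeR's quasi-likelihood test with Benjamini-Hochberg adjustment, the change with BRM014 did not pass for Cbln3 (adjusted p = 0.0786), and that with DMSO did not pass for Pilrb1 (adjusted p = 0.101) and Gsta1 (adjusted p = 0.690). Reads of the Pilr genes and of Gsta1 can be shared with their relatives.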

How the results depend on the processing

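The set held 94 genes with a limit of 1/3 of DMSO, 17 with 1/8 and 35 when both libraries had to meet the limit, against 57. Leaving out 1 library at a time gave 52 to 64 genes for the set. For 30 h over 6 h it gave 10 to 19 lower and 4 to 9 higher with BRM014, and 5 to 10 lower and 22 to 26 higher with DMSO. For neighbours it gave 24 to 30 lower and 5 to 7 higher at 30 h, and 15 to 23 lower and 2 to 8 higher at 6 h. For list genes it gave 16 to 25 lower and 7 to 15 higher at 6 h, and for relatives 20 to 36 lower and 4 to 6 higher at 6 h. Library totals gave 11 higher neighbours at 6 h against 6, and a filter of 1 CPM in at least 4 libraries gave 4 at 30 h against 7. Without relatives, shared stretches or overlapping exons, a choice made after seeing the data, 13 neighbours were lower at 6 h and 3 higher at 30 h. Some settings held fewer genes or libraries. The causes of the differences were not tested.

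With the replicate number as a block, 11 genes of the set were lower at 30 h in DMSO against 7. Deviations of libraries with the same number correlated by 0.122 to 0.201 in 5 of the 6 pairs of groups and by 0.011 between BRM014 30 h and DMSO 6 h. The labels give no shared culture or day, and the libraries were taken to share only a number. The block ended none of the 57 time calls in the set. No call reversed its direction under any of the 15 alternatives. Calls outside the set held under every alternative in 129 of 234 cases.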
